A study of Mus musculus with 8 samples.

Results

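Of 55291 gene symbols measured in microdissected outer medullary collecting ducts of mice, 34 were taken as the genes of cholesterol and fatty acid synthesis and their control by SREBP, matched by symbol. The choice was by name and applied no cut on measured values, but earlier results of these data were known when it was made. All 34 were found, all 34 match protein-coding genes in GENCODE M21 on mm10, and all 34 passed the filter on low values and were tested. They comprise 5 genes of SREBP control, 20 enzymes of the sterol pathway (8 of the mevalonate and isoprenoid part and 12 of the steps after squalene synthesis begins), 5 genes of sterol transport and efflux, and 4 enzymes of fatty acid synthesis.

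The libraries came from wild-type C57BL/6J mice, an inbred strain, on a high-salt (3%) diet or a normal-salt (0.3%) diet for 3 days, with 4 libraries per diet. Each library was a pool of 100 to 120 ducts dissected from the liberase-digested kidney of 1 mouse, so it holds principal and intercalated cells together with whatever adhered to the ducts. The labels give neither the age nor the sex of the mice, nor whether the libraries of a diet came from different mice, so that p-values measure the spread between these libraries. Libraries are named by diet and by the number in their column, which was 2, 3, 4 and 6 for high salt and 1, 2, 3 and 6 for normal salt. In bulk RNA of this kind, fewer cells of a type and less RNA per cell cannot be told apart.

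Sterol regulatory element binding proteins, SREBPs, are membrane-bound transcription factors of the endoplasmic reticulum. When membrane sterol is low, the escort protein SCAP carries them to the Golgi, where proteases release the active factor. When sterol is ample, INSIG proteins hold SCAP back. SREBP2 mainly drives genes of cholesterol synthesis and uptake, and SREBP1 mainly genes of fatty acid synthesis. Oxysterols made from surplus cholesterol activate the liver X receptors, LXRs, which induce the efflux transporters ABCA1 and ABCG1 and the ubiquitin ligase MYLIP. Collecting duct cells face a changing osmolality and carry channels and pumps in sterol-rich membranes.

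Promoter sequences are shown for 4 members that stand for the pathway's branches: Hmgcs1 for the sterol enzymes, Fasn for fatty acid synthesis, Insig1 for sterol feedback and Abca1 for efflux. Each window runs from 250 bases before to 50 bases after a RefSeq start site on GRCm38.p6, 5′ to 3′ on the gene's own strand. The windows are chr13:119690101-119690400 (plus strand) for Hmgcs1, chr11:120824498-120824797 (minus strand) for Fasn, chr5:28071162-28071461 (plus strand) for Insig1 and chr4:53159846-53160145 (minus strand) for Abca1. Capitals mark matches on either strand to 4 motifs, namely the sterol regulatory element bound by SREBPs (TCACNCCAC), the NF-Y box (CCAAT), the E-box (CACGTG) and the GC box (GGGCGG).
Hmgcs1: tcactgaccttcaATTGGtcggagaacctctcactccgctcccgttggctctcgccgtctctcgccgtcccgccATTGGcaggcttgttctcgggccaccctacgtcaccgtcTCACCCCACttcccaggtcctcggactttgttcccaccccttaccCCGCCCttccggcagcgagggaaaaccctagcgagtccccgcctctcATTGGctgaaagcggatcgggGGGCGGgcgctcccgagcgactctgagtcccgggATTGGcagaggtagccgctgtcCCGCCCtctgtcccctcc
Fasn: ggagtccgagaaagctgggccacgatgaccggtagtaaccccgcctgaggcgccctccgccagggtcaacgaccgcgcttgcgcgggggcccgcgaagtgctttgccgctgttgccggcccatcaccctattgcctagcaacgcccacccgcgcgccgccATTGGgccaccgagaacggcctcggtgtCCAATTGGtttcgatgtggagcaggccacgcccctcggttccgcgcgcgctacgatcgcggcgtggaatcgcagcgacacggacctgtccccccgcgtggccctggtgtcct
Insig1: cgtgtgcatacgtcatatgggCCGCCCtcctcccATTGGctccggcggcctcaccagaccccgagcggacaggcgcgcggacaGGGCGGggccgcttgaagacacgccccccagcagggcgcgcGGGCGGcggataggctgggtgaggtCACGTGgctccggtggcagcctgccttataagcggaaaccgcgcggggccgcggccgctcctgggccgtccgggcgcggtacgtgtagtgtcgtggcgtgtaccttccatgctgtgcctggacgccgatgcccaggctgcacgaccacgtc
Abca1: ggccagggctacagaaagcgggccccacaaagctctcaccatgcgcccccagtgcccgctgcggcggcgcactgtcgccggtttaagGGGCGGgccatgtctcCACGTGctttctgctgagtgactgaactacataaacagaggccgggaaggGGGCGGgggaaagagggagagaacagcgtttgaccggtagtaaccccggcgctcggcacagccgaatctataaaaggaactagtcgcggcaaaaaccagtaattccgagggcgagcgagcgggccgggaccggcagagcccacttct

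In the Fasn window 2 NF-Y boxes on opposite strands overlap and form 1 run of capitals. The sterol regulatory element in the Hmgcs1 window starts 137 bases before the start site. Windows were present for 26 of the 34 members, some with several start sites. At least 1 NF-Y box was found for 22 of these 26 (84.6%), against 41.1% of the 27025 symbols with a window and 43.4% of the 10012 tested genes with one. A GC box was also found for 22 of 26 (84.6%), against 38.2% of all symbols and 69.7% of tested genes. E-boxes were found for 6 of 26 (23.1%), against 8.09% of all symbols and 11.8% of tested genes. The sterol regulatory element in this spelling was found for Hmgcs1 alone, 1 of 26 (3.85%), against 1.44% of all symbols and 1.37% of tested genes. These are matches of letters in short windows and do not show binding, and an unmatched window says only that these letters are not in it.

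Markers of principal and intercalated cells were present in every library. The 10 principal cell markers summed to 26243 to 31772 CPM under high salt and 18126 to 23323 CPM under normal salt, without overlap (6 of 10 with higher means under high salt), and 10 intercalated cell markers to 8411 to 10573 and 9856 to 11242 CPM. Most of the gap in the principal cell sum lay in 2 water channel genes, Aqp2 with 15689 ± 1618 CPM under high salt and 9979 ± 2120 CPM under normal salt, and Aqp3 with 4328 ± 729 and 2688 ± 382 CPM (SD, n = 4 each). Hsd11b2 had 3947 ± 204 and 4067 ± 307 CPM, and Scnn1b was lower without overlap at 431 ± 48.3 CPM under high salt and 613 ± 135 CPM under normal salt, so the markers did not share 1 direction. Whether the share of principal cells differed was not tested. Normal-salt library 1 stood apart: it held the highest value in 25.3% and the lowest in 27.7% of tested genes, and its fibroblast and pericyte markers summed to 302 CPM, against 54.6 to 144 CPM in high-salt libraries and 37.1 to 55.9 CPM in the other normal-salt libraries. Its macrophage markers summed to 50.1 CPM, against 16.4 to 21.4 CPM under high salt. Fat cells, which express Fasn and Scd1 strongly, left little trace, since Cidec was at 0 in all libraries and Adipoq reached at most 0.114 CPM. Their 8 markers summed to 17.1 to 22.1 CPM over all 8 libraries, nearly all of it Fabp4, which endothelium also expresses. Proximal tubule markers summed to 22.9 to 187 CPM under high salt and 19.9 to 128 CPM under normal salt, thin limb markers to 544 to 882 and 407 to 706 CPM, and endothelial markers to 187 to 304 and 206 to 311 CPM. Their part in the members' values was not tested.

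Levels between genes were compared in TPM, which corrects for transcript length. Scd2, a stearoyl-CoA desaturase, was the most abundant member with a mean of 391 TPM over the 8 libraries, and its lowest library lay above the highest library of the next gene. Its paralogue Scd1, the main desaturase of liver and fat, was the least abundant at 1.56 TPM, with 0.867 to 5.63 TPM under high salt and 0.332 to 1.36 TPM under normal salt. Below Scd2, Fdps, which makes farnesyl diphosphate, had 124 TPM and Hmgcs1, which makes HMG-CoA for the mevalonate pathway, had 116 TPM. Srebf2, which encodes SREBP2, had 70.4 TPM, and Srebf1, which encodes both forms of SREBP1, had 49.7 TPM. Abca1 and Abcg1 lay near the bottom of the order at 7.01 and 8.19 TPM. In the order of mean levels, Scd2 and Fdps were the only neighbours whose libraries did not overlap, and 26 of the 34 members had at least 10 TPM in every library.

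**Figure D1:**
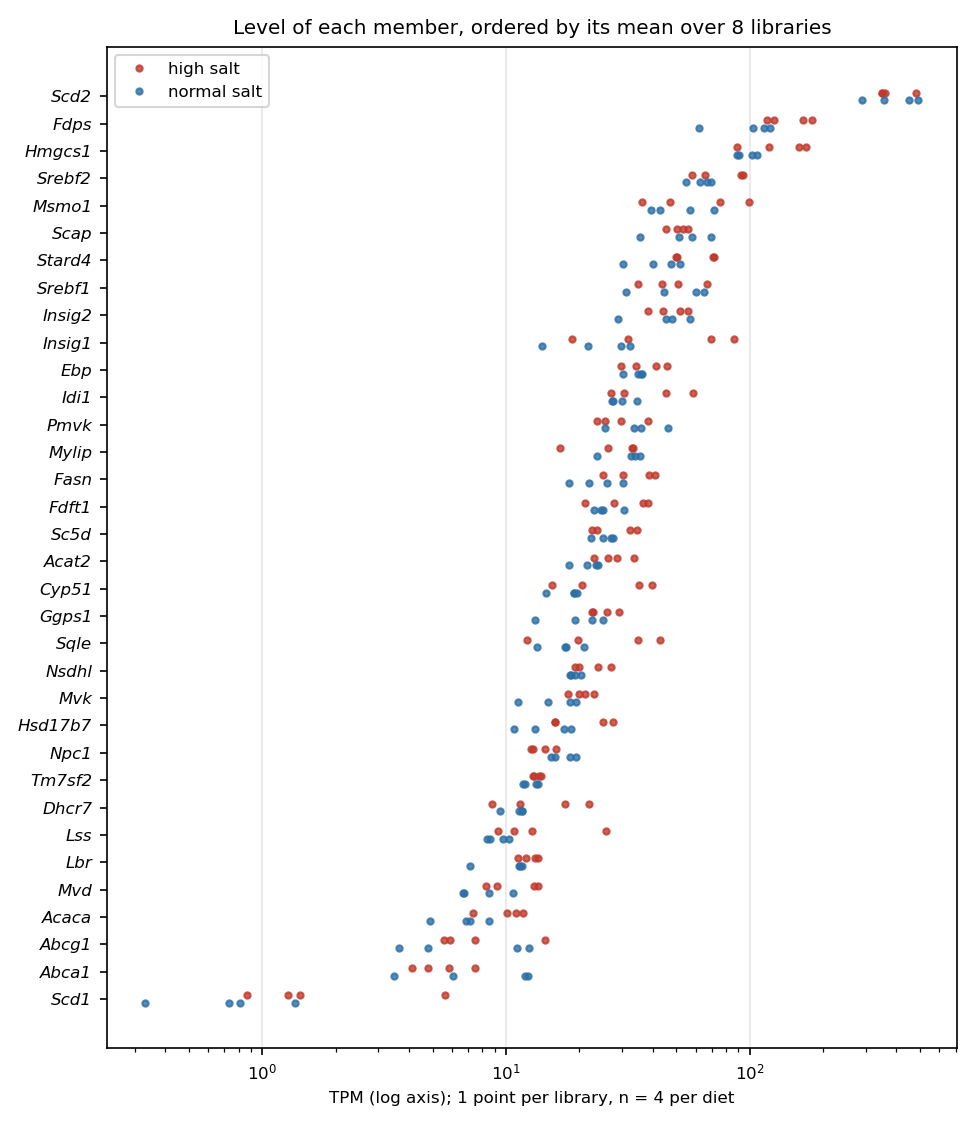
Level of each of the 34 members in TPM on a log axis, 1 point per library (red for high salt, blue for normal salt, n = 4 each), ordered by the mean over all 8 libraries. By mean, Scd2 is highest at 391 TPM and Scd1 lowest at 1.56 TPM, and all neighbours but Scd2 and Fdps overlap.

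The question for the pathway was whether its transcripts differed between high and normal salt intake. None of the 34 members passed limma's test over all genes at an adjusted p under 0.05, where 0.0821% of the 13401 tested genes did. The nearest was Fasn, fatty acid synthase, with an adjusted p of 0.141. At an unadjusted p under 0.05 there were 3 members, Fasn, Stard4 and Fdps, all with higher means under high salt. Of all tested genes 10.3% reached this level, 5.95% with a higher and 4.37% with a lower mean under high salt, so that 3 of 34 is near that background. In limma 26 of 34 members (76.5%) had a positive log2 fold change, against 52.8% of all tested genes. Their median log2 fold change of CPM + 1, high salt minus normal salt, was 0.24, against 0.01 over all tested genes. By role the median was 0.31 for the mevalonate and isoprenoid enzymes, 0.23 for the later sterol enzymes, 0.40 for fatty acid synthesis, 0.04 for SREBP control and -0.11 for transport and efflux.

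**Figure D2:**
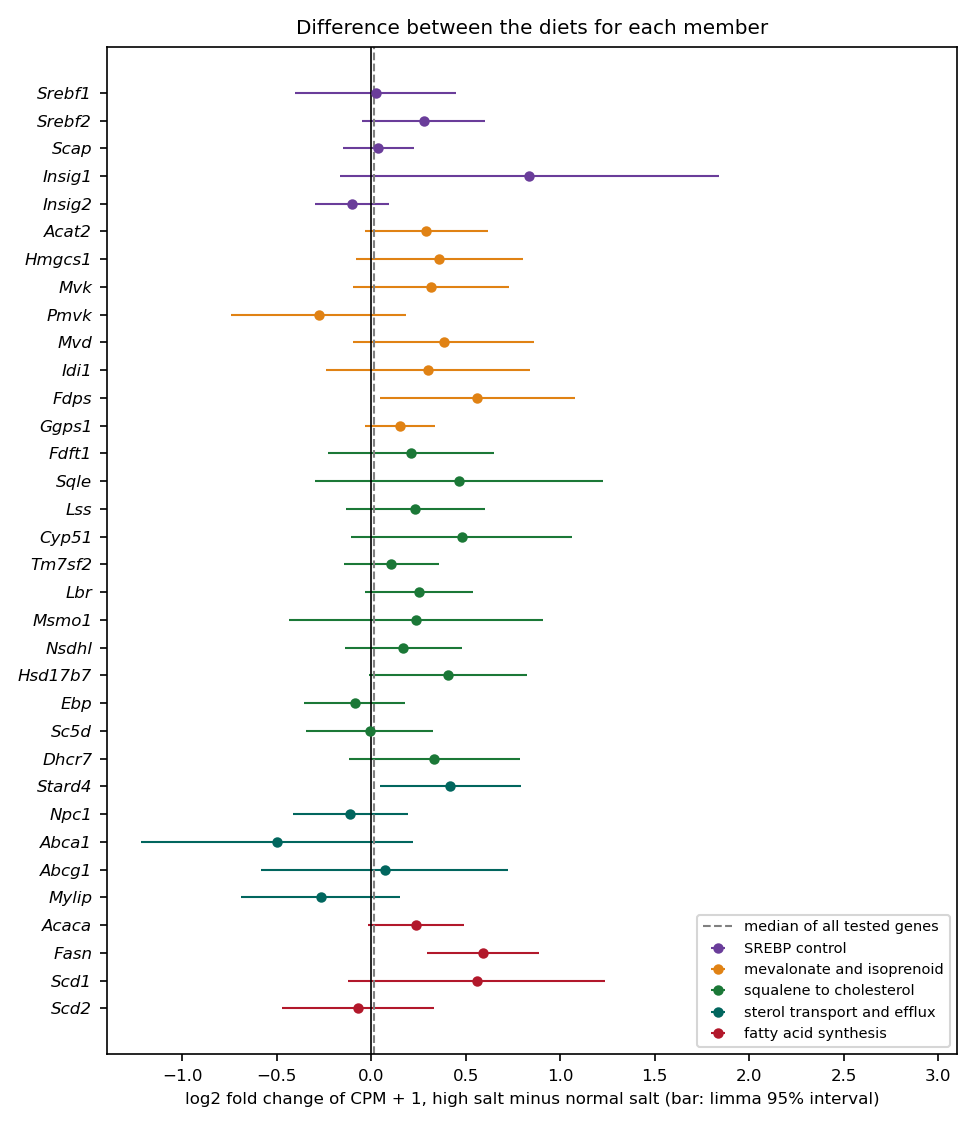
Log2 fold change of CPM + 1 for each member, high salt minus normal salt, with limma's 95% interval as a bar (n = 4 libraries per diet), coloured by role. Intervals for 31 members span 0, and those of Fasn, Fdps and Stard4 lie above it; the dashed line is the median of all tested genes (0.01).

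Beside these values stand the markers of dividing cells, which may be duct cells or others, and of a neighbouring segment. Markers of dividing cells (10 of 10 with higher means under high salt, among them Mki67) summed to 129 to 191 CPM in high-salt libraries and 65.1 to 141 CPM in normal-salt libraries. With the dividing-cell mean as a covariate, the members' median log2 fold change was 0.00 and 17 of 34 were positive. The dividing-cell sum was 86.5, 72.4 and 65.1 CPM in normal-salt libraries 2, 3 and 6, below every high-salt library. This covariate thus ran largely with the diet, and the fit cannot tell a diet difference from a difference in these markers. Genes of the thick ascending limb, a segment that runs beside the duct, summed to 209, 234, 565 and 2970 CPM in high-salt libraries 2, 3, 4 and 6 and to 739 to 2383 CPM in normal-salt libraries (0 of 10 with a higher mean under high salt). With their mean as a covariate, the median was 0.42 and 28 of 34 were positive. By limma 0 members passed in either fit. The lowest adjusted p was 0.114 with the dividing-cell covariate and 0.165 with the thick ascending limb covariate. With the dividing-cell covariate 4 of 34 members had an unadjusted p under 0.05 (3 higher under high salt), where 20.6% of all tested genes did. With the thick ascending limb covariate 18 of 34 did (17 higher), where 7.85% of all tested genes did. In the limb sum, high-salt libraries 2, 3 and 4 lay below every normal-salt library and high-salt library 6 above them all. This covariate was thus also tied to the diet, and its fit cannot tell a diet difference from a difference in these markers. The members share these libraries and are not independent of each other. These covariates were chosen after the data were seen. The median also moved with single libraries, to 0.36 without high-salt library 2 and 0.12 without high-salt library 6.

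Among the genes of SREBP control, neither factor passed the test and both overlapped between the diets. Srebf2 was measured at 164, 186, 255 and 262 CPM in high-salt libraries 2, 3, 4 and 6, against 166, 169, 194 and 176 CPM in normal-salt libraries 1, 2, 3 and 6. High-salt libraries 4 and 6 lay above all 4 normal-salt libraries and the other 2 lay within or below their range (log2 fold change 0.28, 95% interval -0.05 to 0.60, adjusted p = 0.569). Srebf1 had 80.5, 81.7, 89.5 and 125 CPM under high salt and 93.6, 104, 114 and 62.5 CPM under normal salt, in the same library order. The diets overlapped, with both the highest and the lowest of the 8 values in a library numbered 6 (0.02, -0.40 to 0.45, adjusted p = 0.978). The tables hold 1 value per gene, so the SREBP1a and SREBP1c forms were not resolved.

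The 2 INSIG genes, whose proteins retain SCAP, differed in spread. Insig1, itself a classical SREBP target, had 28.4, 48.9, 135 and 107 CPM under high salt, against 53.6, 33.5, 50.9 and 20.7 CPM under normal salt. High-salt libraries 4 and 6 stood far above the rest, and high-salt library 2 was the second lowest of all 8. Its log2 fold change of 0.84 was the largest of the 34, with the widest interval (-0.17 to 1.84, adjusted p = 0.573). Insig2 had 44.9, 50.4, 48.5 and 55.0 CPM under high salt and 52.4, 54.4, 55.6 and 50.7 CPM under normal salt. High-salt libraries 2, 3 and 4 lay below all 4 normal-salt libraries and high-salt library 6 lay within their range (-0.10, -0.30 to 0.10, adjusted p = 0.756). Scap was among the steadiest members at 113 ± 2.21 CPM under high salt and 111 ± 9.68 CPM under normal salt (SD, n = 4 each, adjusted p = 0.922).

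In the mevalonate and isoprenoid part, 7 of 8 enzymes had a positive log2 fold change and 1 reached an unadjusted p under 0.05. That was Fdps, with 81.3, 87.5, 116 and 125 CPM under high salt and 95.7, 69.4, 78.1 and 41.0 CPM under normal salt. Normal-salt library 6 was far below the rest, and normal-salt library 1 lay above the lower 2 high-salt libraries (log2 fold change 0.56, SE 0.23, unadjusted p = 0.036, adjusted p = 0.443). Ggps1, which makes geranylgeranyl diphosphate for protein prenylation, had 33.7, 34.1, 35.0 and 37.2 CPM under high salt and 30.3, 31.1, 32.0 and 32.2 CPM under normal salt. The diets did not overlap, yet the difference was small (0.15, SE 0.08, adjusted p = 0.588). Hmgcs1 had 156, 218, 288 and 306 CPM under high salt and 220, 160, 199 and 158 CPM under normal salt, so that its lowest value was in a high-salt library and its highest 2 in others (0.36, SE 0.20, adjusted p = 0.584).

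The other enzymes of this part were Acat2, Mvk, Pmvk, Mvd and Idi1. Acat2, the cytosolic acetoacetyl-CoA thiolase, ranged from 30.2 to 42.9 CPM under high salt and from 23.3 to 36.2 CPM under normal salt. Mevalonate kinase, Mvk, ranged from 16.2 to 20.8 CPM under high salt and from 9.66 to 19.8 CPM under normal salt. Mvd, the mevalonate diphosphate decarboxylase, averaged 12.0 ± 3.03 CPM under high salt and 8.99 ± 2.72 CPM under normal salt (SD, n = 4 each, as below). The diets overlapped in these 3 genes. Idi1, the isomerase of the isoprene units, averaged 64.5 ± 24.3 CPM under high salt and 50.5 ± 12.1 CPM under normal salt. Pmvk, phosphomevalonate kinase, was the exception in sign at 19.1 ± 4.18 and 23.8 ± 7.66 CPM (log2 fold change -0.28), with its highest value, 34.8 CPM, in normal-salt library 1. The adjusted p of these 5 lay between 0.539 and 0.732.

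After the branch point, 10 of 12 sterol enzymes had a positive log2 fold change and 0 had an unadjusted p under 0.05 by limma. Fdft1, squalene synthase, had 38.0, 50.9, 68.5 and 71.2 CPM under high salt and 63.0, 46.3, 42.6 and 42.0 CPM under normal salt (log2 fold change 0.21, adjusted p = 0.776). Sqle, squalene epoxidase, had 19.8, 32.3, 58.0 and 71.3 CPM under high salt and 40.3, 28.4, 29.2 and 21.1 CPM under normal salt (0.47, SE 0.35, adjusted p = 0.702). Cyp51, the lanosterol demethylase, had 35.3, 46.1, 76.4 and 90.5 CPM under high salt and 51.5, 38.5, 44.5 and 32.8 CPM under normal salt (0.48, SE 0.26, adjusted p = 0.581). In all 3 genes high-salt libraries 4 and 6 were the highest 2 of the 8, normal-salt library 1 came next, and the diets overlapped.

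Hsd17b7, a sterol ketoreductase, had the smallest unadjusted p of the 12 (0.0553), with 50.5 ± 14.7 CPM under high salt and 36.9 ± 5.03 CPM under normal salt. Msmo1, the sterol C4 methyl oxidase, averaged 69.4 ± 30.0 and 56.8 ± 18.7 CPM, with values from 39.9 to 102 CPM within high salt and from 41.5 to 81.1 CPM within normal salt. Lss, lanosterol synthase, averaged 37.8 ± 10.3 and 31.3 ± 3.08 CPM, and Dhcr7, the last reductase of one route to cholesterol, 19.7 ± 4.62 and 15.4 ± 3.98 CPM under high and normal salt. Nsdhl, the sterol decarboxylase, averaged 27.8 ± 4.38 CPM under high salt and 24.6 ± 3.81 CPM under normal salt. The 2 enzymes able to reduce the C14 sterol bond were Lbr, also a nuclear envelope protein, and Tm7sf2. Lbr averaged 23.2 ± 1.87 CPM under high salt and 19.4 ± 2.91 CPM under normal salt. Tm7sf2 ranged from 10.2 to 12.1 CPM under high salt and from 9.55 to 10.4 CPM under normal salt. Ebp, the sterol isomerase, had 30.4 ± 1.38 CPM under high salt and 32.6 ± 5.72 CPM under normal salt, and Sc5d, the sterol desaturase, 42.0 ± 8.79 and 41.9 ± 5.69 CPM.

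Within a diet, the sterol enzymes spread over a wide range. Over the 20 enzymes the median SD of log2(CPM + 1) was 0.32 within high salt and 0.26 within normal salt, against 0.15 and 0.22 over all tested genes. High-salt library 6 held the highest of the 8 values in 14 of the 20 enzymes, where it did so in 12.1% of all tested genes. Normal-salt library 6 held the lowest in 9 of 20, against 18.3% of all tested genes, and high-salt library 2 in 6 of 20, against 8.63%. As deviations from each gene's mean over the 8 libraries on the log2(CPM + 1) scale, the 20 enzymes had medians of -0.21, -0.03, 0.31 and 0.46 in high-salt libraries 2, 3, 4 and 6. It was 0.22, -0.15, -0.10 and -0.35 in normal-salt libraries 1, 2, 3 and 6. The enzymes share these libraries and are not independent of each other, and no test was made of this pattern, which was described after the values were seen.

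**Figure D3:**
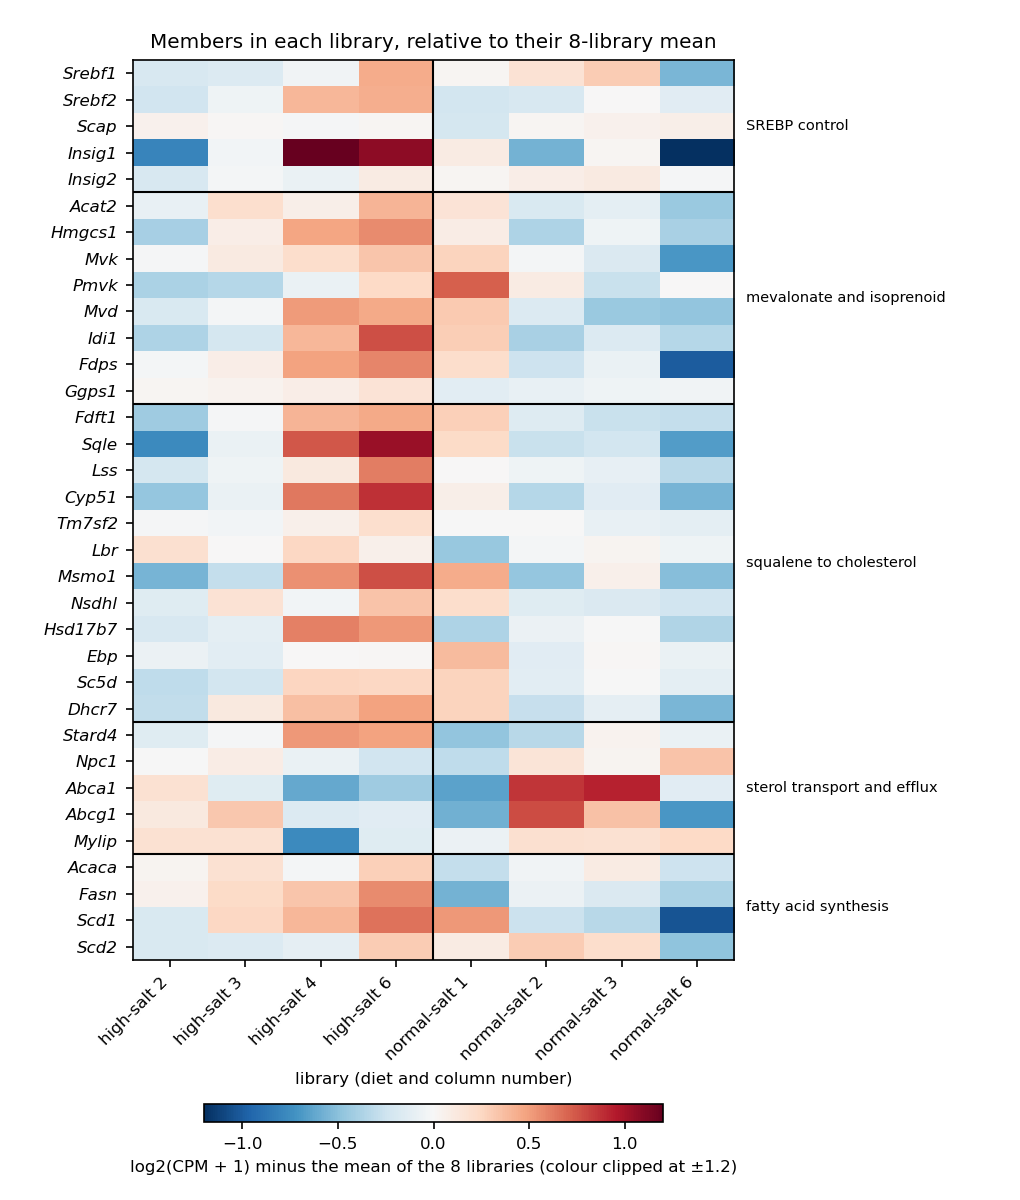
Each member (rows, by role) in each library (columns, high salt left of the line and normal salt right), as log2(CPM + 1) minus its mean over the 8 libraries, with colours clipped at ±1.2. High-salt library 6 is highest in 14 of the 20 sterol enzymes and normal-salt library 6 lowest in 9, whereas Abca1 is highest in normal-salt libraries 2 and 3.

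Among sterol transport and efflux genes, 2 of 5 had a positive log2 fold change. Stard4, a soluble carrier that moves cholesterol between membranes and is induced by SREBP2, had 130, 142, 208 and 201 CPM under high salt and 104, 114, 148 and 136 CPM under normal salt. High-salt libraries 2 and 3 lay within the normal-salt range, and high-salt libraries 4 and 6 lay above it (log2 fold change 0.42, SE 0.17, unadjusted p = 0.0321, adjusted p = 0.429). Abca1, Abcg1 and Mylip are LXR targets. Abca1 had 46.7, 37.0, 26.4 and 30.3 CPM under high salt and 25.8, 75.1, 78.7 and 37.2 CPM under normal salt, with all high-salt values inside the wide normal-salt range (-0.50, SE 0.33, adjusted p = 0.657). Abcg1 had 26.0, 30.2, 21.1 and 21.7 CPM under high salt and 15.7, 41.9, 30.7 and 14.4 CPM under normal salt (0.07, SE 0.30, adjusted p = 0.96). Mylip, whose protein degrades lipoprotein receptors, had 60.2, 60.3, 30.9 and 48.0 CPM under high salt and 50.4, 60.8, 60.2 and 62.6 CPM under normal salt (-0.27, SE 0.19, adjusted p = 0.687). Npc1, which exports cholesterol from lysosomes, averaged 42.9 ± 3.98 CPM under high salt and 46.9 ± 8.72 CPM under normal salt (adjusted p = 0.831).

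Over the 5 transport and efflux genes the median deviation from the same means came to 0.12, 0.09, -0.17 and -0.14 in high-salt libraries 2, 3, 4 and 6. In normal-salt libraries 1, 2, 3 and 6 it was -0.47, 0.19, 0.18 and -0.08. The 3 libraries with positive enzyme medians, high-salt 4, high-salt 6 and normal-salt 1, were also the 3 with the lowest medians here. This order was noticed in the data and was not tested.

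**Figure D4:**
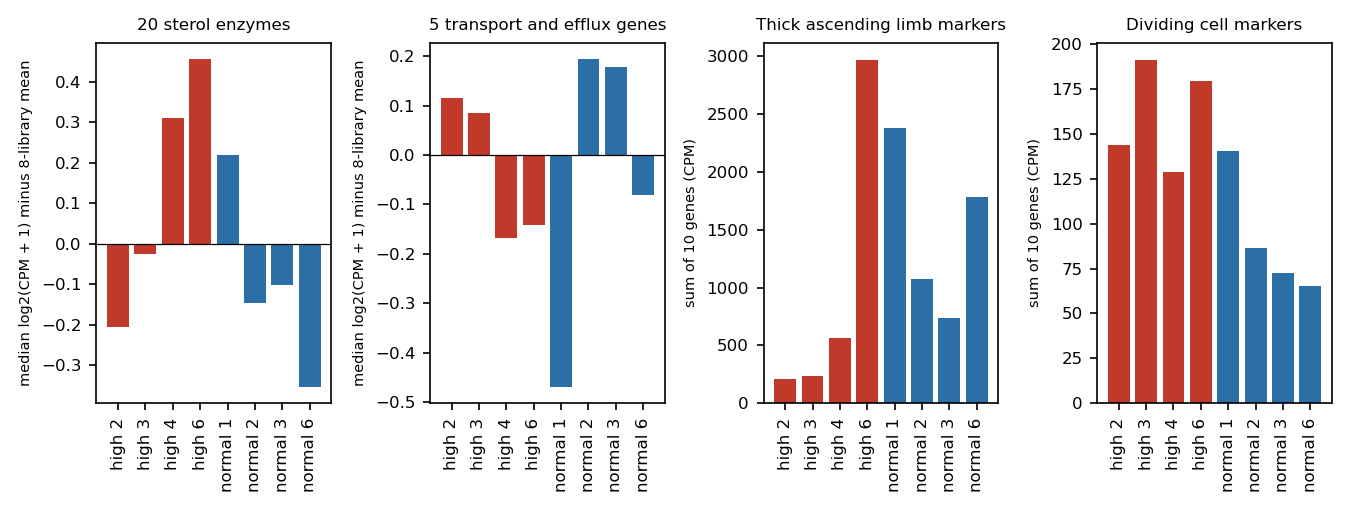
For each library (red for high salt, blue for normal salt), the median deviation of the 20 sterol enzymes and of the 5 transport and efflux genes from their 8-library means on the log2(CPM + 1) scale, and the summed CPM of 10 thick ascending limb and 10 dividing cell markers. The enzyme median runs from -0.35 in normal-salt library 6 to 0.46 in high-salt library 6. The thick ascending limb sum is 1782 CPM in the former and 2970 CPM, the highest, in the latter. High-salt library 4 has an enzyme median of 0.31 and a limb sum of 565 CPM.

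Fatty acid synthesis held the member with the smallest p. Fasn had 117, 132, 143 and 167 CPM in high-salt libraries 2, 3, 4 and 6, against 75.8, 107, 100 and 86.6 CPM in normal-salt libraries 1, 2, 3 and 6. Every high-salt library lay above every normal-salt library, as in 1 other member (Ggps1), where 6.4% of all tested genes had diets that did not overlap, 3.66% with high salt above and 2.75% with high salt below. Fasn averaged 140 ± 21.3 CPM under high salt and 92.4 ± 13.9 CPM under normal salt (SD, n = 4 each), with a log2 fold change of 0.59 (SE 0.13, 95% interval 0.29 to 0.89, unadjusted p = 0.00116, adjusted p = 0.141). In TPM the diets overlapped in all 34 members, where 6.14% of all tested genes had diets that did not. Fasn had 25.0, 30.3, 38.5 and 41.1 TPM under high salt and 30.2, 21.9, 18.1 and 25.9 TPM under normal salt. The limma fit of log2(TPM + 1) gave Fasn a log2 fold change of 0.47 (unadjusted p = 0.0329, adjusted p = 0.484). Normal-salt library 1, lowest of the 8 in CPM, was the fourth highest in TPM. In that fit 0 members passed and 6 had an unadjusted p under 0.05 (Fdps, Hmgcs1, Stard4, Fasn, Acat2 and Acaca), all higher under high salt, where 9.4% of all tested genes did in either direction.

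Acaca, acetyl-CoA carboxylase 1, which makes the malonyl-CoA used by fatty acid synthase, had 41.0, 45.5, 39.2 and 48.9 CPM under high salt. Under normal salt it had 32.7, 38.9, 42.8 and 33.5 CPM, so that the diets overlapped (log2 fold change 0.24, SE 0.12, adjusted p = 0.52). Scd1 had 2.50, 3.75, 4.24 and 5.28 CPM under high salt and 4.73, 2.33, 2.16 and 0.939 CPM under normal salt (0.56, SE 0.31, adjusted p = 0.579). Scd2 had 1167, 1182, 1225 and 1634 CPM under high salt and 1418, 1635, 1529 and 947 CPM under normal salt (-0.07, SE 0.18, adjusted p = 0.932). High-salt library 6 was apart from the other 3 of its diet in Scd2, and the diets overlapped in both desaturases.

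**Figure D5:**
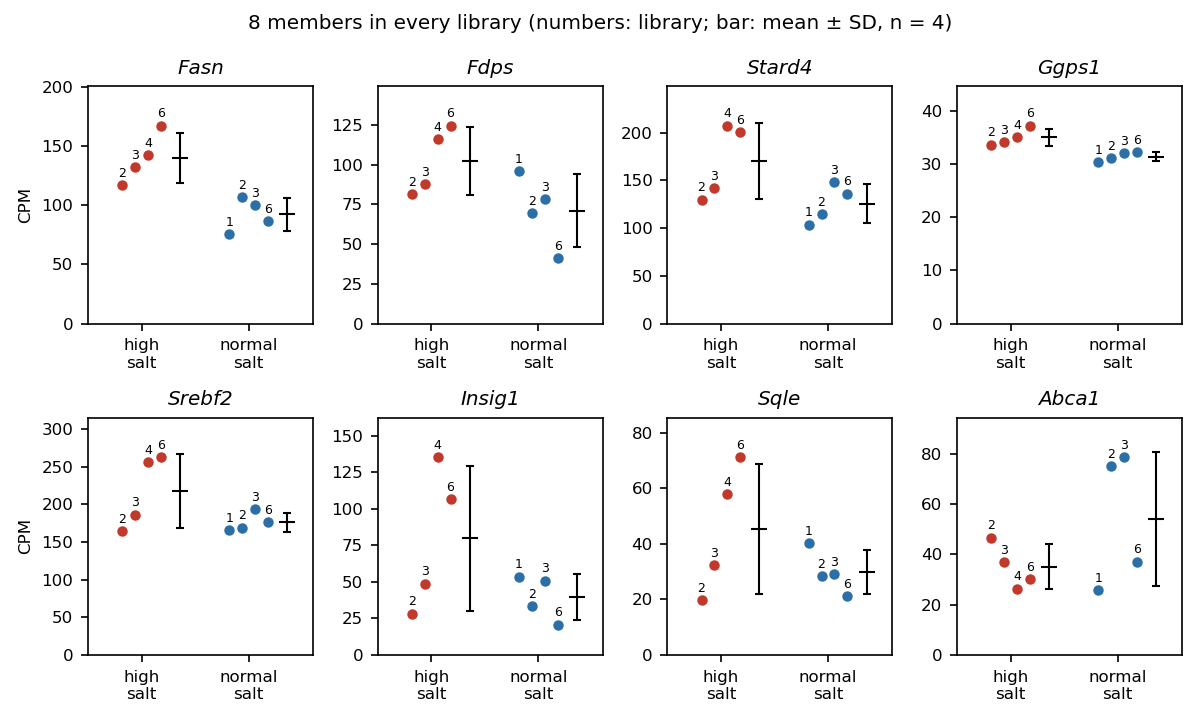
CPM of 8 members in every library, high salt (red) left of normal salt (blue), with library numbers beside the points and the mean ± SD of 4 libraries as a bar. The diets do not overlap in Fasn and Ggps1 and overlap in the other 6, and for Insig1 and Sqle the high-salt libraries spread from 28.4 to 135 CPM and from 19.8 to 71.3 CPM.

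Genes of the same pathways outside the 34 were counted from a list of 50, of which 47 were tested. By limma 0 passed over all genes, 3 had an unadjusted p under 0.05, all with higher means under high salt, and 28 of 47 (59.6%) had a positive log2 fold change with a median of 0.04. The same shares over all tested genes were 10.3% and 52.8%, so that 3 of 47 is no more than the background. Among 17 tested genes of acetyl-CoA supply and fatty acid elongation and desaturation, 12 were positive and the median was 0.16. Elovl6, which elongates the palmitate made by fatty acid synthase, had 228, 223, 241 and 201 CPM under high salt and 120, 173, 171 and 175 CPM under normal salt. The diets did not overlap (log2 fold change 0.50, SE 0.13, unadjusted p = 0.00272, adjusted p = 0.179). In this list of 17 the diets also did not overlap in Acly, which makes cytosolic acetyl-CoA, and Hacd3, a dehydratase of fatty acid elongation, both named after their values were seen. Their log2 fold changes were 0.14 (adjusted p = 0.589) and 0.16 (adjusted p = 0.539). All 3 had high salt above, as had 3.66% of all tested genes. Fads1, a fatty acid desaturase, averaged 73.0 ± 9.09 CPM under high salt and 53.8 ± 11.8 CPM under normal salt (0.45, adjusted p = 0.367). Abcg2, an exporter of drugs and urate, averaged 7.20 ± 1.84 CPM under high salt and 4.51 ± 1.35 CPM under normal salt (0.57, adjusted p = 0.423). Of 10 tested genes of SREBP processing and LXR signalling 3 were positive (median -0.03), of 10 tested genes of sterol handling 8 (0.11), and of 10 genes of the isoprenoid branches 5 (0.00).

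Some values may hold reads of overlapping genes, since libraries were made with a stranded kit but no source used here gives the strand setting of the counting. In GENCODE M21 on mm10, exons of 13 of the 34 members overlap an exon of another gene. Tm7sf2 overlaps Vps51 on its own strand, and Cyp51 overlaps Akap9, Fdft1 overlaps Ctsb and Ggps1 overlaps Arid4b on the opposite strand. Fasn (chromosome 11, 120805846 to 120824547, minus strand) overlaps none, nor do Insig1 (chromosome 5, 28071363 to 28078662, plus strand) and Sqle (chromosome 15, 59315077 to 59331192, plus strand). Fdps (chromosome 3, 89093588 to 89101959, minus strand) overlaps a predicted gene on its own strand.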

How the data were processed

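The authors deposited gene tables of CPM on a log2 scale and of TPM, with 55291 symbols and 8 libraries. The submitters' processing notes name mm10, with FastQC for read quality and Trimmomatic for trimming. Which aligner and counter made the tables is not given in the sources used here, nor is their strand setting. The deposited log2 values shared a floor of -5.29; 2 to the power of each value, less that floor, summed to the same total in every library and was used as linear CPM. The CPM steps gave totals of 64.8 to 94.1 M estimated counts per library, averaging 76.5 M under high salt and 80.8 M under normal salt, so that 1 count was worth 0.0106 to 0.0154 CPM. Of the values under 1000 counts, 83.8% to 85.0% came out whole (within 0.005 counts), so a count model was not used. Column numbers did not match the sample titles, so columns were tied to a diet only.

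The 13401 genes with at least 1 CPM in at least 4 libraries were tested in limma (version 3.58.1, under R 4.3.3) after taking log2(CPM + 1) (lmFit, eBayes with trend, two-sided, Benjamini-Hochberg over all tested genes, threshold 0.05). Fold changes on this scale understate those of low genes. Intervals are 95%, and SDs are over 4 libraries. The fit was also run on simulated counts with known changes. These were drawn for each gene on its own, without the differences shared by many genes of a library, and no conclusion here rests on them. Lists are described by counts and medians, with no test over a list. The members and lists were chosen with earlier results of these data known. Values in every library are given for members with an unadjusted p under 0.05 or diets that do not overlap, and for 16 members set by role; of the other pathway genes, those with an unadjusted p under 0.05 are named. Alternatives covered the pseudocount (0.1 and 0.5), the filter, scaling, TPM, voom, robust moderation, a block by column number and each library left out.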

Additional observations from a re-analysis of the deposited data

Results flagged for a closer look

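Within groups of 4 libraries, 4 of 88 sets of values (34 members and 10 marker sums in each diet) held a library whose gap to the next exceeded Dixon's 95% limit, where chance alone marks about 1 in 20. The 1 member was Scd2, with 1634 CPM in high-salt library 6 and 1167 to 1225 CPM in the other 3 high-salt libraries. In the same library the thick ascending limb markers summed to 2970 CPM, against 209 to 565 CPM in the other 3. In normal-salt library 1 the fibroblast and pericyte markers summed to 302 CPM and the macrophage markers to 50.1 CPM, against 37.1 to 55.9 CPM and 15.3 to 20.3 CPM in the other 3 normal-salt libraries. The part of these cells in the Scd2 value was not tested.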

How the results depend on the processing

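In all alternatives run, 0 of the members passed limma's test. Their lowest adjusted p was 0.111, for Abca1 with a replicate block on the column numbers. High-salt library 4 and normal-salt library 1 share their number with no other library. The block fit therefore takes no diet difference from them. Of 713 log2 fold changes of members under alternatives, 673 kept their sign and side of the threshold and 40, of 20 members, changed sign. The number of genes called over all genes, 11 in the fit as reported, was 0 with no filter on low values (1933 at an unadjusted p under 0.05), 22 with robust moderation and 38 with the replicate block. It ran from 0 (without high-salt library 4, 924 at an unadjusted p under 0.05, and without normal-salt library 3, 1231) to 50 (without normal-salt library 1) with 1 library left out. Same-numbered libraries correlated at 0.208, 0.287 and 0.00201 in their deviations, and libraries of different numbers at -0.275 to 0.296. These values do not settle whether the numbers mark pairs, and the labels do not say so, so the libraries were not paired. Under the replicate block Scap came to -0.016, Ebp to 0.0086 and Abcg1 to -0.044. In TPM, Srebf1 came to -0.016, Scap to -0.024, Insig2 to 0.11, Ebp to 0.12 and Sc5d to 0.13.

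With 1 library left out, the log2 fold change ran from -0.16 to 0.13 for Srebf1, from -0.027 to 0.066 for Scap, from -0.15 to 0.024 for Ebp, from -0.096 to 0.090 for Sc5d, from -0.15 to 0.34 for Abcg1 and from -0.24 to 0.020 for Scd2. Over all alternatives the log2 fold change of Fasn ran from 0.41 to 0.72. Chosen after seeing the data were 3 further fits. Without high-salt library 6 and normal-salt library 1, 43 genes were called, and Srebf1 came to -0.11, Scap to -0.030, Ebp to 0.0053 and Abcg1 to -0.055. With the thick ascending limb covariate 38 genes were called, and Pmvk came to 0.0018, Sc5d to 0.18, Abcg1 to -0.18 and Scd2 to 0.036. With the dividing-cell covariate 33 genes were called and 17 members were positive; Srebf1 came to -0.16, Acat2 to -0.099, Mvk to -0.17, Mvd to -0.075, Idi1 to -0.049, Fdft1 to -0.16, Sqle to -0.0021, Msmo1 to -0.14, Nsdhl to -0.22, Dhcr7 to -0.085, Npc1 to 0.20, Abca1 to 0.075 and Scd1 to -0.31. The cause of these shifts was not tested. With 4 libraries per diet and the spread seen here, limma's intervals for most members include both signs, so differences smaller than those intervals were not detectable.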
